A study of Mus musculus with 8 samples.

Results

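Oxidative phosphorylation is the process in which mitochondria use electrons from nutrients to make ATP. Complexes I to IV form the electron transport chain, in which NADH and succinate are oxidized, oxygen is reduced and complexes I, III and IV pump protons, and complex V, the ATP synthase, uses the proton gradient to make ATP. Complex II is encoded by the nucleus alone, whereas each of the other complexes combines nuclear subunits with subunits encoded by mitochondrial DNA. The liver relies on this machinery in fasting, when fatty acid oxidation feeds electrons into the chain.

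The genes were chosen by symbol (Nduf, Sdh, Uqcr, Cox4 to Cox8 and Atp5 names, and the mitochondrially encoded mRNAs) with a mean level above the lowest of the table. This gave 103 of the 18937 genes with reads, 13 of them mitochondrially encoded and 90 nuclear. Of the nuclear genes, 83 matched a protein-coding gene of GENCODE vM21, 2 matched a pseudogene and 5 had no match by Entrez ID and were given no length. A further 3 matching symbols, Cox7b2, Cox8c and Ndufb11b, lay at the lowest value of the table and had no reads. Names choose genes imperfectly, so Ndufab1, Cyc1 and Cycs, which also belong to the chain, are outside the rule and are given separately. Ndufa4, named after complex I, was placed with complex IV together with Ndufa4l2.

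The data came from livers of adult male C57BL/6NHsd mice, 12 to 14 weeks old, after a 6 h fast, from 4 wild-type animals and 4 animals homozygous for V227A. V227A replaces a valine of PPARɑ with alanine. PPARɑ is the receptor for fatty acids that controls lipid catabolism. The allele was made by base editing of zygotes with NG-ABEmax and descends from a heterozygous founder backcrossed to the same strain, so it is present in all tissues and not in hepatocytes alone. Stranded poly-A libraries of total liver RNA were sequenced in pairs.

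The value used for each gene was the authors' average log2 CPM, taken here as the log2 of the read count scaled to library size and averaged over all 8 libraries. Values per library were not analysed here, so no level has an SD, the genotypes were not compared and no test was run. A level below is this average less log2 of the gene's exon length, in log2 CPM per kb of exon, and compares genes within these livers. The lowest value, -3.78, belongs to genes without reads and corresponds to about 27473997 reads in an average library if a prior count of 2 was added. The tissue label was checked on markers. All 6 hepatocyte markers were high (10.51 to 16.09 log2 CPM, highest for Alb, which encodes albumin), whereas the summed CPM was 97484 for these and 156 for 4 Kupffer cell markers, 95.3 for 3 endothelial, 130 for 3 stellate and 6.66 for 3 cholangiocyte markers. In whole liver, fewer cells of a type and less RNA per cell cannot be told apart.

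Several members have near-identical copies elsewhere in the genome, and sequence is needed to read their levels. For each gene, the share of its coding words of 75 bases that also occur in a transcript of another annotated gene, on either strand, was counted in GENCODE vM21. The following stretches of coding sequence (GRCm38, 5′ to 3′ on the strand of the gene) set members beside their copies, with differing bases in capitals. COX3, a catalytic core subunit of complex IV, is shown at chrM:8727-8786 (plus strand) with the pseudogene Gm28437 at chr1:24613792-24613851 (minus strand). All 60 bases are identical.

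COX3: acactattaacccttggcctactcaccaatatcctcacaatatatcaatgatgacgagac

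Gm28437: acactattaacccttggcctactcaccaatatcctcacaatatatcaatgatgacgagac

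ND2, a core membrane subunit of complex I, is shown at chrM:4454-4513 (plus strand) with Gm13339 at chr2:22590462-22590521 (minus strand). The copy differs at 1 of the 60 bases.

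ND2: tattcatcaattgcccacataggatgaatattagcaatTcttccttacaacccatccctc

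Gm13339: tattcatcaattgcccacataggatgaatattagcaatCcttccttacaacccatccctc

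Cox7c, a small nuclear subunit of complex IV, is shown at chr13:86045765-86045824 (minus strand) with the processed pseudogene Gm10012 at chr17:25901982-25902041 (plus strand). Atp5mc2 encodes the same c subunit of the ATP synthase ring as Atp5mc1 and Atp5mc3. It is shown at chr15:102665180-102665239 (minus strand) with the processed pseudogene Gm10175 at chr7:23947033-23947092 (minus strand). Both pairs are identical over 60 bases.

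Cox7c: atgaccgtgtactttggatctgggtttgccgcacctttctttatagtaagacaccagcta

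Gm10012: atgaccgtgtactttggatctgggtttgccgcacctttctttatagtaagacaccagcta

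Atp5mc2: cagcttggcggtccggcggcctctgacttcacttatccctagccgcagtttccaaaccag

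Gm10175: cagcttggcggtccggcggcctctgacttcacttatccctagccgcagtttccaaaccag

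Ndufs6, an accessory subunit of complex I, has a more diverged copy. It is shown at chr13:73320339-73320398 (minus strand) with Ndufs6b, itself a row of the table, at chr7:81161504-81161563 (minus strand), and 3 of the 60 bases differ.

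Ndufs6: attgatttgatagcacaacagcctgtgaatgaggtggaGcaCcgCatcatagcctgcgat

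Ndufs6b: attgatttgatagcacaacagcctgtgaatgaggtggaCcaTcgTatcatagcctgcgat

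The mitochondrially encoded genes fell into 2 sets with a wide gap between them. COX1, the catalytic subunit of complex IV, had an average of 13.76 log2 CPM and ranked 5 among all genes of the table, and CYTB, the cytochrome b of complex III, had 13.67 and ranked 8. These 2 genes held 58.0% of the summed CPM of the mitochondrially encoded mRNAs. The complex I genes ND1, ND2, ND4, ND5 and ND6 completed the high set, with 12.30, 12.24, 12.53, 11.32 and 10.16 log2 CPM. ND6 is the one mRNA of the set encoded on the opposite strand, and it lies next to ND5 with an overlap of 14 bases between the annotated genes. The strand setting of the read counting is not given in the sources used here. Reads from the other strand could thus not be told apart, and the level of ND6 is uncertain.

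Against this, COX2 and COX3, the other core subunits of complex IV, had 2.11 and 1.80 log2 CPM. ATP6 and ATP8, the mitochondrially encoded subunits of the ATP synthase, had 0.93 and -1.16, and the small complex I subunits ND3 and ND4L had -1.61 and -2.09. In estimated reads per library these 6 genes ranged from 4.47 (ND4L) to 116 (COX2), whereas the 7 others ranged from 31477 (ND6) to 381854 (COX1). Per kb of exon, the 7 genes of the high set had levels of 10.46 (ND5) to 13.47 (CYTB), with a median of 12.19. The 6 of the low set had -0.33 (ND4L) to 2.66 (COX2), with a median of 1.31. The gap between the sets was 7.80 on the log2 scale, and the high set held 99.98% of the summed mitochondrial CPM.

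The sets differed in position and in shared sequence, and both held genes of complexes I and IV. The 6 low genes are consecutive on the mitochondrial genome, from COX2 (chrM:7013-7696) over ATP8, ATP6, COX3 and ND3 to ND4L (chrM:9877-10173). Of the coding words of 75 bases, 100% of COX2, ATP6 and ND4L, 99.9% of COX3 and 98.9% of ND3 occur in a second annotated gene. For the high set the shares were 61.5% for ND4, 39.7% for COX1, 5.72% for ND2, 1.66% for ND5 and 0% for ND1, ND6 and CYTB. ATP8 was the exception, with 1.14 log2 CPM per kb and a share of 0%.

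The copies of COX1, COX2, ATP6, COX3, ND3, ND4L and ND4 are 7 unprocessed pseudogenes in the same order, next to each other at chr1:24611535-24616197 (minus strand), over 4663 bases. Between the copies of COX2 and ATP6 lie 233 bases in which no gene of this group is annotated. On the mitochondrial genome COX2 and ATP6 are 230 bases apart, and ATP8, of 204 bases, lies there, overlapping ATP6 by 43 bases. The sequence of that interval of chromosome 1 was not compared. How reads with more than one placement were counted is not given in the sources used here, and the part of shared sequence in the low levels was not tested. The levels of COX2, COX3, ATP6, ATP8, ND3 and ND4L are therefore uncertain as levels of the mRNA.

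**Figure D1:**
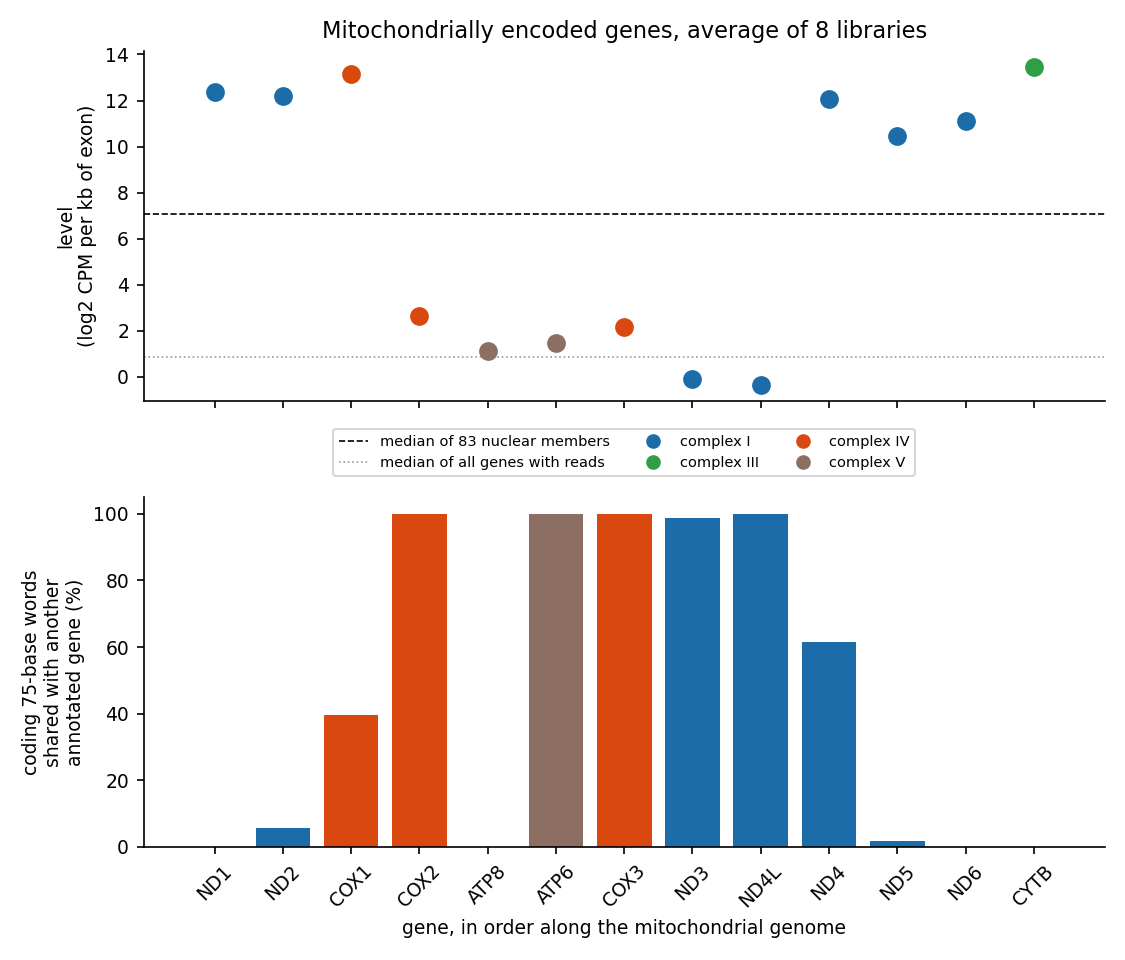
Level of each mitochondrially encoded gene in log2 CPM per kb of exon (top, 1 point per gene, average of 8 libraries) and percent of its coding 75-base words that occur in another annotated gene (bottom, bars), in order along the mitochondrial genome and coloured by complex. The 6 neighbours from COX2 to ND4L lie at 2.66 or below, the other 7 genes at 10.46 or above, and ATP8 is the low gene without shared words.

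The 83 nuclear coding members were among the more abundant mRNAs of these livers. Their levels ran from -2.18 (Cox6a2) to 9.65 (Cox4i1), with a median of 7.05 log2 CPM per kb, against 0.88 for the 16237 genes that had reads and a length. A level above that median was found for 78 of the 83, and 67 lay at or above the 90th percentile of all genes. They are spread over 19 nuclear chromosomes. Together the 103 members held 6.01% of the table's summed CPM, of which the mitochondrially encoded genes held 4.63% and the nuclear genes 1.39%.

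The mitochondrially encoded genes as a whole had a median level 3.40 above that of the nuclear coding members on the log2 scale, or 2.63 above it per kb of coding sequence. The high set alone lay 5.14 above it, a 35.2-fold difference, and per kb of coding sequence 4.37 above it, or 20.6-fold. The high set was picked by these same levels and the nuclear genes were not, so part of this gap comes from the choice. By complex, the 7 mitochondrially encoded complex I genes had a median of 11.11 and the 35 nuclear complex I genes one of 6.60, a difference of 4.51 or 22.7-fold. CYTB lay 6.08 above the median of the 8 nuclear complex III genes, which is 67.5-fold. The libraries were poly-A selected, and whether mRNAs of both genomes were captured equally was not tested.

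In complexes IV and V the order was the other way round. COX1, COX2 and COX3 had a median of 2.66, 4.36 below the 7.02 of the 18 nuclear complex IV genes. ATP6 and ATP8 had a median of 1.31, 6.08 below the 7.39 of the 18 nuclear complex V genes. When genes with at least 90% of their coding words shared were left out of both genomes, a limit chosen after the values were seen, the mitochondrially encoded median was above the nuclear one by 5.46 in complex I, 6.08 in complex III and 5.48 in complex IV, and the difference in complex V was -6.44. Complex IV thus changed sign, and its mitochondrially encoded side was then COX1 alone. In complex V that side was ATP8 alone, with an estimated 10.3 reads per library and an uncertain level. Per kb of coding sequence, with all genes, the 4 differences were 3.44, 4.83, -5.46 and -7.44.

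In complex I the nuclear levels were close together, with an interquartile range of 0.93 on the log2 scale around the median of 6.60. Ndufb9, Ndufb10 and Ndufa6, accessory subunits, were the highest at 8.69, 7.92 and 7.78 log2 CPM per kb. Ndufb4, Ndufb2 and Ndufs5, also accessory subunits, were the lowest at 3.20, 3.89 and 3.93. Ndufb4 shares 100% of its coding words, among others with Ndufb4c, and Ndufs5 shares 59.4%. Ndufb2 has 4375 bases of annotated exon but 315 coding bases, and per kb of coding sequence its level was 7.69, beside a median of 7.68 for the complex on the same scale. Ndufs1, the large iron-sulfur subunit, had 4.86.

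Apart from Ndufs1, the core subunits named here lay near the median of complex I. Ndufv1, which binds NADH and FMN, had a level of 6.93, and the iron-sulfur subunits Ndufs7 and Ndufs8 had 6.52 and 6.51. 

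The 4 genes of complex II, succinate dehydrogenase, showed moderate spread. Sdhb, the iron-sulfur subunit, had 7.70 log2 CPM per kb, the membrane anchor Sdhd 7.15, the flavoprotein Sdha 7.05 and the other anchor Sdhc 5.67. Sdhc has 3171 bases of annotated exon for 507 coding bases, and per kb of coding sequence its level of 8.32 was above the 7.60 of Sdha. The order of the 4 genes thus depended on the length used. None of the 4 shared a coding word of 75 bases with another gene.

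All 8 nuclear genes of complex III lay between 6.86 and 8.77, a range of 1.91 per kb of exon, against 2.03 in complex II. Per kb of coding sequence the range was 2.87 in complex III and 0.92 in complex II. The small subunits Uqcrh, Uqcr10 and Uqcr11 were the highest, at 8.77, 8.36 and 8.06 log2 CPM per kb. The core subunit Uqcrc2 (6.86), the Rieske iron-sulfur protein Uqcrfs1 (7.05) and Uqcrb (7.14) were the lowest. Cyc1, the cytochrome c1 of this complex and outside the rule, had 7.06. Cycs, the somatic cytochrome c that carries electrons on to complex IV, had 1.45, and 100% of its coding words occur in other genes. Over its whole transcript the share was 26.1%. Cycs has 3123 bases of annotated exon for 315 coding bases, and per kb of coding sequence its level was 4.76.

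Complex IV held the highest and the lowest nuclear levels. Cox4i1, Ndufa4 and Cox6a1 were the highest at 9.65, 9.27 and 9.25 log2 CPM per kb, and Cox6a2, Cox4i2 and Cox8b were the lowest at -2.18, -1.91 and -1.39. The range corresponds to 3636-fold, and to 7040-fold without the prior count, since Cox6a2 had an estimated 2.14 reads per library. The low genes were mostly second isoforms of subunits that have a high one, and these isoforms are described separately. Without the 6 second isoforms and Cox7c, the other 11 genes lay between 6.12 and 9.65, with a median of 8.33. Cox7c, which has no second isoform in the list, had 2.38, and 100% of its coding words are shared.

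Levels in complex V ran from 0.31 to 9.14 log2 CPM per kb. Atp5f1b, the catalytic beta subunit, and Atp5mc3, a gene for the c ring, both had 9.14, and Atp5f1e, the small epsilon subunit of the central stalk, had 8.89. The small membrane subunit Atp5me had 8.60, the alpha subunit Atp5f1a 8.36 and the gamma subunit of the central stalk, Atp5f1c, 7.33. The lowest were Atp5mc2 (0.31), Atp5mc1 (3.08) and Atp5mk (3.44), a small membrane subunit. Atp5mg, another small membrane subunit, had 4.07, and Atp5if1, the inhibitor of ATP hydrolysis, had 4.71. The shares of coding words were 100% for Atp5mc2, Atp5mk and Atp5mg, 92.8% for Atp5mc1 and 5.33% for Atp5if1.

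**Figure D2:**
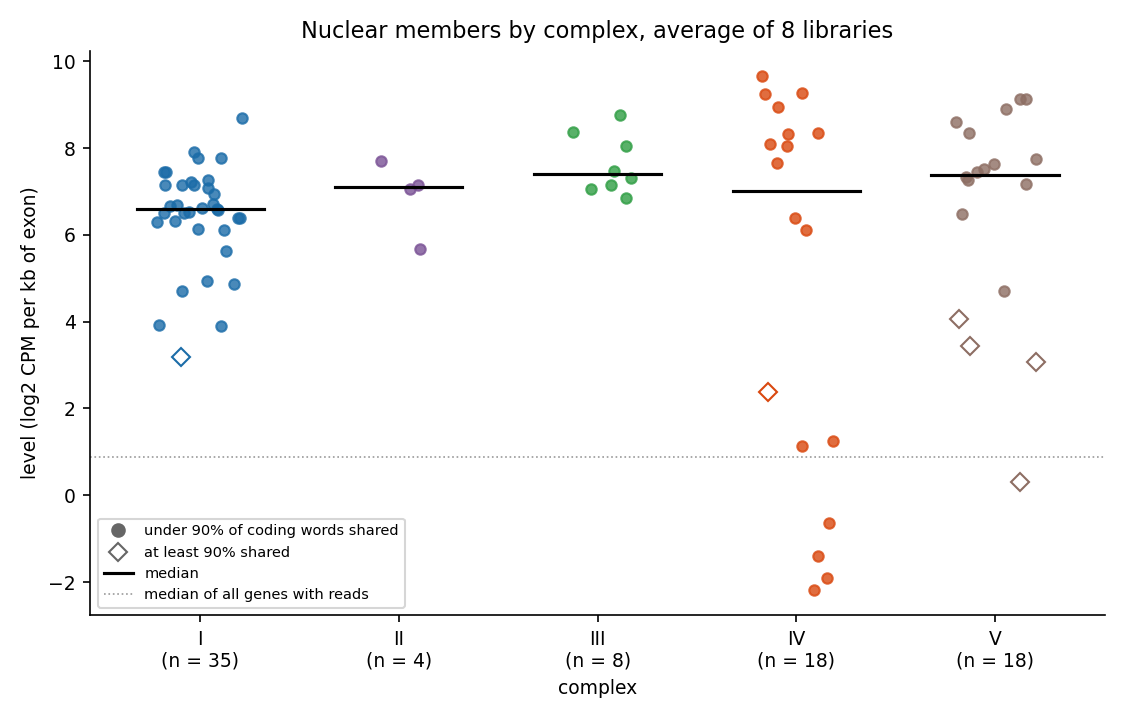
Level of the 83 nuclear coding members in log2 CPM per kb of exon by complex, 1 point per gene, averaged over 8 libraries, with the median of each complex as a bar. Open diamonds are the 6 genes with at least 90% of their coding words shared, which lie between 0.31 and 4.07, and the points below 2 in complex IV are second isoforms.

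Across both genomes, every coding member with at least 90% of its coding words shared had a level of 4.07 log2 CPM per kb of exon or less. The share counts coding words only, whereas the level takes in reads from all of the exon. Over the whole transcript, shared words were 6.1% in Atp5mk, 7.6% in Atp5mc1 and 35.2% in Ndufb4. They were 50.4% in Cox7c, 76.0% in Atp5mg, 86.9% in Atp5mc2 and 97.8% or more in the 5 mitochondrially encoded genes. The limit of 90% was chosen after the values were seen, in a wide gap between 63.2% (Ndufa12) and 92.8% (Atp5mc1). The 6 nuclear genes above it were Atp5mc2, Atp5mc1, Atp5mk, Atp5mg, Cox7c and Ndufb4, with a median of 3.14 log2 CPM per kb, and the 77 below it had a median of 7.15. The 5 mitochondrially encoded genes above it had a median of 1.48, and the 8 below it 12.13. Per kb of coding sequence the 6 nuclear genes ranged from 1.05 (Atp5mc2) to 7.43 (Atp5mk), all below the median of 7.83 of the 83 nuclear genes on that scale, and Atp5mk and Atp5mc1 (6.67) were then above unshared or little shared genes such as Ndufs1 (5.23). Of the 27 nuclear genes with a partial share, 15 lay below the nuclear median of 7.05 and 5 below 5, against 20 and 7 of the 50 genes without shared words. Of the 5 genes with over 50% but under 90% shared, Uqcrb (50.6%) had 7.14, Atp5pd (54.3%) 6.48, Cox7a2l (59.1%) 6.12, Ndufs5 (59.4%) 3.93 and Ndufa12 (63.2%) 4.94. Of the 18 nuclear genes below 5, 12 shared less than 90%, and 6 of these 12 were second isoforms with a share of 0%. The other 6 were Ndufa12 (63.2%), Ndufs5 (59.4%), Ndufb2 (34.4%), Atp5if1 (5.33%), Ndufs1 (4.98%) and Ndufc1 (0%). The 7 genes below 5 without shared words were thus the 6 second isoforms and Ndufc1.

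As a description over the 83 nuclear genes, Spearman's rho between share and level was -0.30, and over the 13 mitochondrially encoded genes it was -0.55. The genes share libraries, annotation and short coding lengths, and 50 of the 83 nuclear genes are tied at 0%. Outside the rule, Ndufab1, the acyl carrier protein of complex I, shared 93.4% and had 0.80 log2 CPM per kb. Over its whole transcript 10.9% of the words were shared. Ndufab1 has 4387 bases of annotated exon for 468 coding bases, and per kb of coding sequence its level was 4.03. The part of shared sequence in these levels was not tested.

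**Figure D3:**
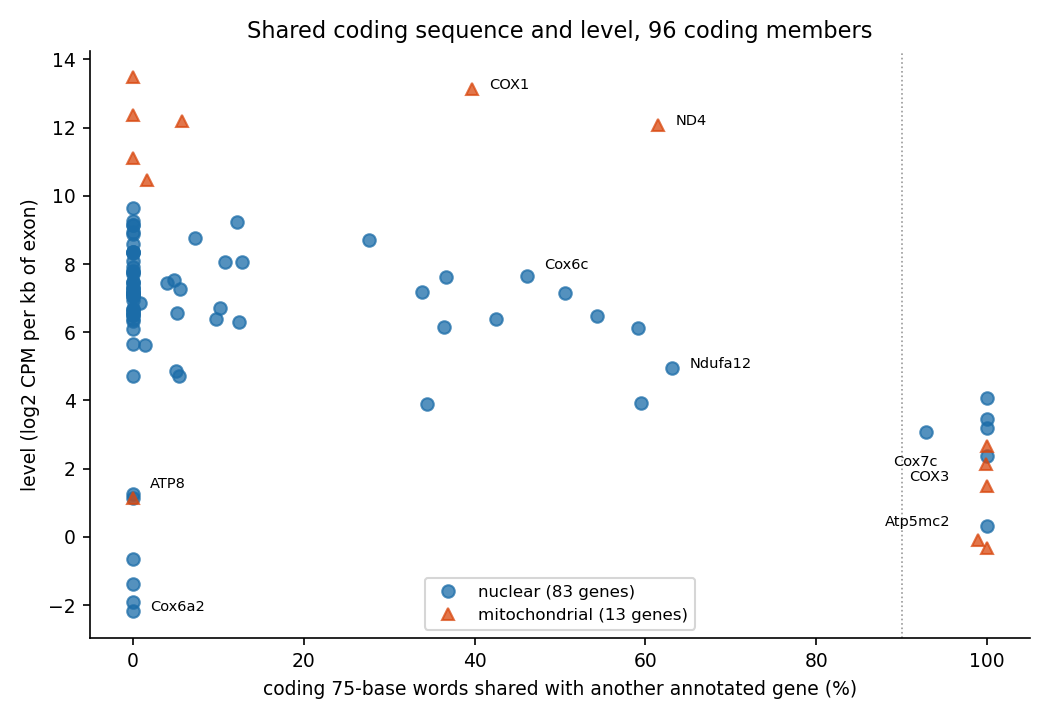
Percent of coding 75-base words that occur in another annotated gene (x axis) against level in log2 CPM per kb of exon (y axis) for 96 coding members, nuclear as circles and mitochondrially encoded as triangles, with the limit of 90% dotted. Right of the limit no gene exceeds 4.07, and left of it levels below 2 belong to ATP8 and to second isoforms such as Cox6a2.

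The rows without a coding match add to this picture. Ndufs5-ps had 4.51 log2 CPM, above the 3.71 of Ndufs5 itself, and Ndufs6b had 4.40, below the 6.32 of Ndufs6. Uqcrh-ps1 had 1.88, against 7.90 for Uqcrh. Ndufb4c and Ndufb4b had -1.27 and -2.13, with an estimated 9.37 and 4.27 reads per library. The pseudogenes Atp5c1-ps and Ndufa11b had 2.60 and -0.73 log2 CPM. Reads could be split between such a row and its parent gene, so these values and those of the parents are uncertain.

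Several subunits of complex IV exist as isoforms made from separate genes, of which one is used in most tissues and the other is known from heart and skeletal muscle, lung, testis or brown fat. In these livers the widely used isoform was far above the other in each pair examined but that of Cox7a2 and Cox7a2l. Cox4i1 had an estimated 16917 reads per library and Cox4i2, the isoform of lung, 3.74. Their levels differed by 11.57 on the log2 scale. Cox6a1 and Cox6a2, the latter the isoform of heart and muscle, differed by 11.42, with 9525 and 2.14 reads. Cox8a and Cox8b, the latter known from muscle and brown fat, differed by 9.74, with 4916 and 1.77 reads. At so few reads the size of a difference depends on the prior count, and without it these 3 differences were 12.19, 12.37 and 10.83.

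Cox6b1 was 9.59 above Cox6b2, an isoform of testis, and Cox7a2 was 7.19 above Cox7a1, an isoform of heart and muscle. Ndufa4 was 8.01 above Ndufa4l2, which is known as a hypoxia-responsive gene. Cox7b2 and Cox8c, both known from testis, had no reads, so no fold is given for Cox7b or Cox8a over them. Cox7a2l, known as a factor of supercomplexes of complexes III and IV, was 2.21 below Cox7a2. Markers of testis, muscle and brown fat were themselves low, and no lung marker was examined. The testis markers Prm1, Prm2 and Tnp2 had no reads, as had the heart marker Myh6, and Ucp1 of brown fat had -3.02 log2 CPM. Ckm, Acta1 and Tnnt2 of muscle had -1.41, -0.40 and 0.30.

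The 3 genes for the c subunit of the ATP synthase encode one mature protein with different import sequences. Atp5mc3 had 9.14 log2 CPM per kb, 6.06 above Atp5mc1 and 8.82 above Atp5mc2. Atp5mc1 has 4912 bases of annotated exon for 408 coding bases, and per kb of coding sequence its distance from Atp5mc3 was 3.25. Atp5mc1 and Atp5mc2 are the genes of the 3 with copies, whereas Atp5mc3 shared 0% of its coding words.

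**Figure D4:**
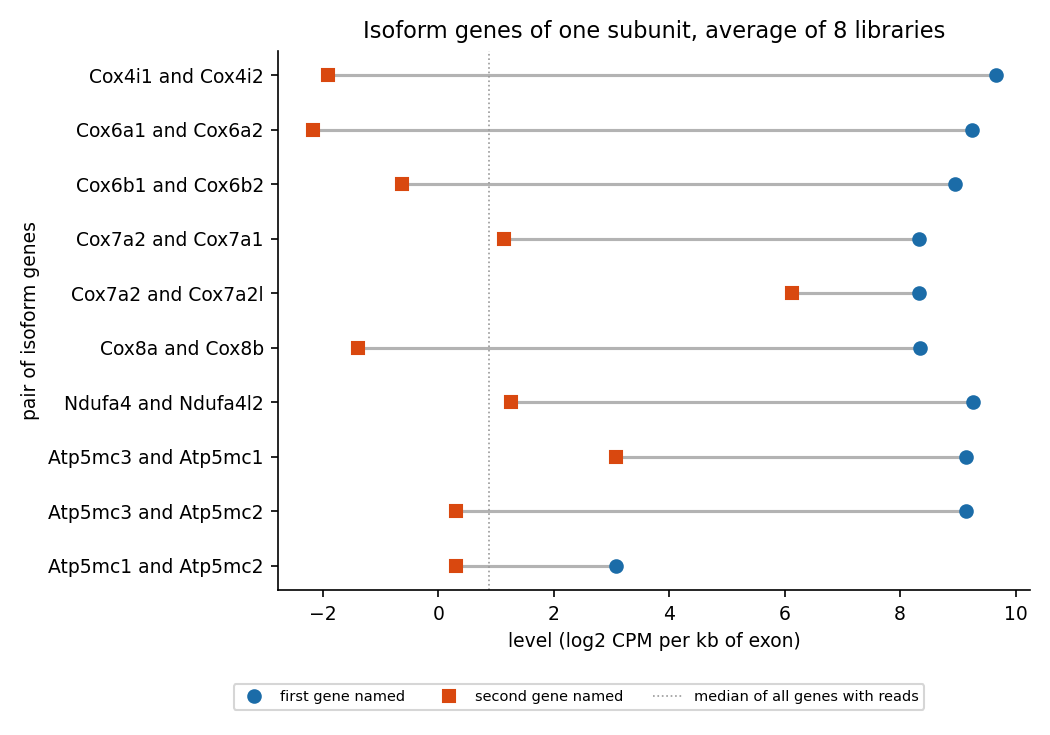
Levels of isoform genes in log2 CPM per kb of exon, averaged over 8 libraries, with the first gene of each pair as a circle and the second as a square. Cox4i1, Cox6a1, Cox6b1, Cox7a2, Cox8a and Ndufa4 lie at 8.33 or above, whereas their partners other than Cox7a2l lie at 1.25 or below.

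Building the complexes takes assembly factors, proteins that insert cofactors or hold subunits together and leave the finished complex. Of 49 listed assembly factors, 48 had reads and Pet117 had none. Shared words were not counted for the assembly factors, so copies of them were not examined. Their median level of 3.46 log2 CPM per kb was 3.59 below that of the 83 nuclear subunits, a 12.1-fold difference, and per kb of coding sequence the difference was 2.58, or 5.96-fold. The highest per kb of exon, Coa3 of complex IV, had 5.48, and 65 of the 83 subunits lay above it. Per kb of coding sequence the highest was Coa5 at 8.19, and 34 subunits lay above that. By complex the median of the factors was 3.71 for complex I (15 genes), 2.45 for II (4), 3.35 for III (6), 3.71 for IV (20) and 3.36 for V (3).

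Among the factors of complex I, Ecsit was highest at 5.20 and Nubpl, which delivers iron-sulfur clusters, lowest at 1.36. For complex IV, Surf1 and the copper chaperone Sco2 had 5.19 and 4.87, and Cox15, which makes heme A, had 1.62. Atpaf1, which binds the beta subunit of the ATP synthase during assembly, had -1.20, against 9.14 for the beta subunit Atp5f1b. Genes that maintain or express the mitochondrial genome, 11 of them, ranged from 0.54 to 6.54 log2 CPM. Lrpprc, which stabilizes mitochondrial mRNAs, had 6.54 log2 CPM, the highest of them, and Tfam, which packages mitochondrial DNA, had 5.55. The factors named here were chosen after their values were seen, as were Ndufs1, Ndufv1, Ndufs7, Ndufs8, Ndufa12, Atp5pd, Atp5f1a, Atp5f1c, Atp5me, Atp5mg and Atp5if1.

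**Figure D5:**
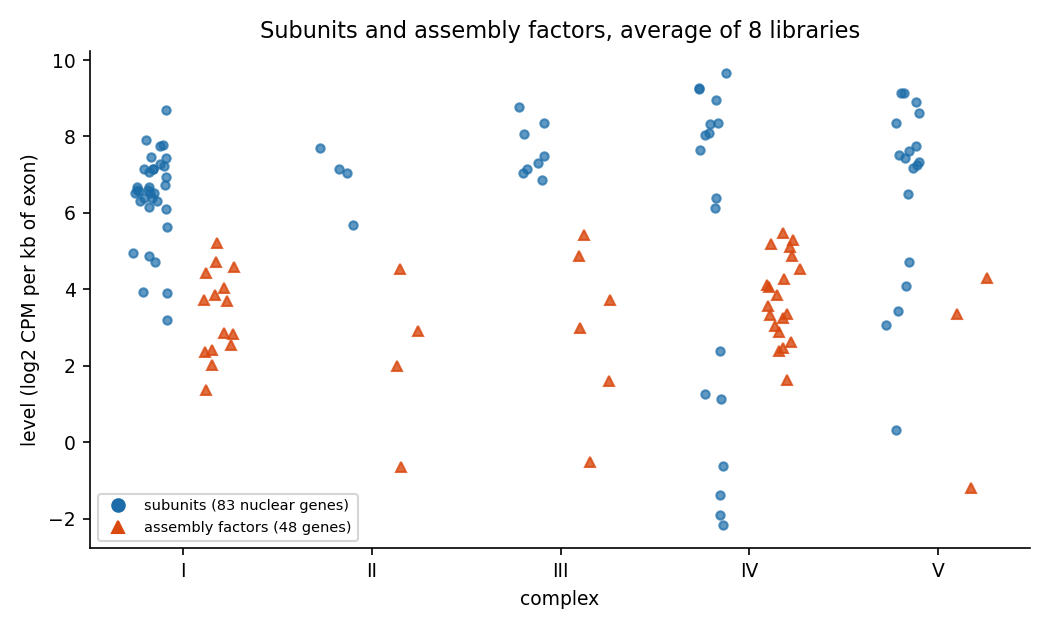
Levels in log2 CPM per kb of exon of 83 nuclear subunits (circles) and 48 assembly factors (triangles) by complex, averaged over 8 libraries. The factors reach 5.48 at most, and the subunits below them in complexes IV and V are second isoforms or genes with shared coding words, Atp5if1 apart.

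Nuclear respiratory factor 1 (NRF1) and YY1 are transcription factors known to bind promoters of many genes of the respiratory chain, and ERRɑ is an orphan receptor that acts with PGC-1 coactivators on the same genes. Promoter windows of 300 bases, 250 before and 50 after the start, were taken from RefSeq on GRCm38.p6 and matched 68 of the 83 nuclear coding members. The NRF1 core GCGCATGCG, on either strand, occurred in the windows of 8 of the 68 (11.8%), against 1.95% of all 27025 genes with a window. The YY1 word AAGATGGCG occurred in 7 (10.3%), against 1.64% of all genes. The ERR word TCAAGGTCA occurred in 2 (2.94%), against 0.466%, namely in Atp5mc3 and Sdhd. The NRF1 core is nearly its own reverse complement, so a match on one strand often overlaps one on the other, and genes were counted once. The 27025 genes were not limited to coding genes or to genes with reads, and were not matched to the members for level. These are matches of letters and not shown binding sites, and no test was run.

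The genes with the NRF1 core were Ndufa8 and Ndufa11 of complex I, Uqcrc1 and Uqcr11 of complex III, Cox6a1 of complex IV, and Atp5mc2, Atp5me and Atp5mg of complex V. Those with the YY1 word were Ndufa9, Ndufc1, Ndufs4, Ndufs6 and Ndufs7 of complex I and Atp5mf and Atp5pf of complex V. The stretches below show the NRF1 core in capitals upstream of Cox6a1 (chr5:115349096-115349136), Atp5me (chr5:108434425-108434465) and Atp5mc2 (chr15:102671065-102671105), all on the minus strand, because they span the range of levels from 9.25 over 8.60 to 0.31 log2 CPM per kb.

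Cox6a1: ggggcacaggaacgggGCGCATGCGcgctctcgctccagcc

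Atp5me: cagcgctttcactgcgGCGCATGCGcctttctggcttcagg

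Atp5mc2: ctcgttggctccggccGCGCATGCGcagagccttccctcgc

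The 8 genes with the core had a median level of 7.35 log2 CPM per kb, with a range of 0.31 to 9.25, and the 60 without it had a median of 6.83, with a range of -1.39 to 9.27. The ranges overlapped.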

How the data were processed

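RNA-seq of 4 wild-type and 4 V227A livers was used. Per the labels and methods, the authors used Trimmomatic for trimming, STAR for alignment to GRCm38, featureCounts for counting and edgeR for the comparison. Versions, annotation, strand setting and treatment of reads with several placements are not given in the sources used here. The deposited table has 0 columns of values per library. Its average log2 CPM, computed by the authors over all libraries, was used. Its columns of fold change, F, p-value and FDR are the authors' own genotype comparison and were not used, so the planned genotype test was not run. Replicates were not compared for the same reason.

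Lengths came from the basic set of GENCODE vM21 (union of exons), matched by Entrez ID for 85.7% of genes with reads (genes annotated under another ID stayed without a length). Reads per library were estimated from the lowest value and a prior count of 2. This was checked on 2378 low genes (1 to 5 reads in all libraries), where 99.9% of estimates fell no more than 0.1 from an integer. Each library's depth is unknown, so no interval is given. Shared words were counted against all other annotated transcripts, the mitochondrial genes excepted, without the genome sequence. Scripts used Python 3.11.15, pandas 2.3.3 and numpy 2.4.6, and the read estimate and the word count were tested on simulated data. The named genes were all mitochondrially encoded genes, the 3 highest and 3 lowest nuclear genes per complex, listed isoforms and genes with under 10 estimated reads per library. Genes, lists and rules were chosen with earlier results of these data known. Cox16 was moved from the list of complex I assembly factors to that of complex IV, where it acts, after values were seen.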

Additional observations from a re-analysis of the deposited data

How the results depend on the processing

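No paired analysis was possible because the values are averages over all libraries, and for the same reason no library could be left out in turn. A value was taken to have moved when it shifted by at least 0.5 on the log2 scale. For shares of the summed CPM the limit was 1.5 percentage points, and for a count of genes it was 1.5-fold. In 1 result the sign changed, the difference of mitochondrially encoded and nuclear genes in complex IV. It was -4.36, and 5.48 without genes with at least 90% shared coding words. That choice, made after seeing the data, moved the complex I difference from 4.51 to 5.46. Coding length, also added later for this comparison, gave 3.44 (I), 4.83 (III), -5.46 (IV) and -7.44 (V). Coding length in place of exon length moved the distance of mitochondrially encoded from nuclear genes from 3.40 to 2.63, the nuclear medians to 7.68 (complex I), 8.23 (II), 8.65 (III), 8.12 (IV) and 8.76 (V), the differences of Cox8a and Cox8b to 10.37, of Atp5mc3 and Atp5mc1 to 3.25 and of Atp5mc1 and Atp5mc2 to 5.61, and subunits over assembly factors from 3.59 to 2.58. With log2 CPM of at least 0 alone, the first distance became 4.44 and the complex IV median 8.07. Without ATP8, ATP6, ND4L, ND4 and ND6 it became 4.27, and no complex V gene was left to give a value. Without the prior count, the isoform differences became 12.19 (Cox4i1), 12.37 (Cox6a1) and 10.83 (Cox8a). Leaving out genes with at least 90% shared coding words, chosen after seeing the data, gave a distance of 4.98 and a complex IV median of 7.65. The other 39 values stayed within their limits, among them the count of 11 genes with at least 90% shared words, also with words of 50 and 100 bases. Unknown depth per library, length annotation and copies limit what the levels show.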
